A study of Solanum lycopersicum with 18 samples.

Results

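The comparison described here is that of red ripe fruit of the tomato variety Heinz (H) grown in Acerra with fruit of the same variety grown in Sarno, both fields in the Campania region of southern Italy. H is a processing variety and its genome is the tomato reference. The Acerra group held 3 RNA-seq libraries (group H_Acerra) and the Sarno group held 3 (group H_Sarno), so that 6 of the 18 libraries of the study entered, and the others came from the local varieties San Marzano (SM) and Vesuviano (RSV). The members were those loci of the H files whose FPKM averaged 0.5 or more across these 6 libraries, which were 18089 of 35566, matched between the sites by the gene ID of the files. FPKM counts sequenced fragments in relation to transcript length and to the number of mapped fragments of the library, and the values are those of the authors' Cufflinks run for H.

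Both groups were grown in the field, in soil with mostly silt and clay at Acerra and mostly limestone and sand at Sarno, and the labels name no further treatment. Site, soil, weather and field differ together and cannot be told apart. The frozen material was a mixture of the fruit of several plants, since the harvest of a plot was combined by variety. Whether the 3 libraries of a group represent different plots or repeat aliquots of the same pooled fruit is not stated in the methods, so SDs and p-values measure the spread between these libraries only.

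Tomato is a climacteric fruit, whose ripening is driven by ethylene made from methionine through ACC synthase and ACC oxidase. Ethylene acts through transcription factors of the ERF family, while WRKY and CBF factors, calcium sensors and receptor kinases are known for responses to pathogens, wounding and cold. During ripening the cell wall is loosened and dismantled by enzymes such as xyloglucan endotransglucosylase/hydrolases (XTHs), pectinesterases, expansins and glucanases, and chloroplasts turn into chromoplasts.

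The 6 libraries listed between 22057 and 23650 loci above 0, with the highest number in Sarno replicate 1. The files hold no counts. The study lists the number of fragments sequenced per library, but FPKM values were not turned back into fragments here, so no counting interval is given. In that listing the first Sarno sample of H had more fragments than the other Sarno samples of H, and fewer than the third Acerra sample. It also had the lowest percentage of mapped fragments in H. Whether depth or mapping bears on the values of Sarno replicate 1 was not tested. Acerra libraries correlated with each other at 0.975 to 0.981 (Pearson's r over the tested loci, on log2(FPKM + 0.5)), and Sarno replicates 2 and 3 at 0.963. Sarno replicate 1 stood apart, with r of 0.945 and 0.925 to the other Sarno libraries and 0.894 to 0.913 to the Acerra libraries. The spread between replicates was larger in Sarno, with a median SD of 0.242 on the log2 scale against 0.169 in Acerra. FPKM summed to between 1129708 and 1168355 in the Acerra libraries and to between 892841 and 951610 in the Sarno libraries. The 11 marker genes of ripe fruit were all expressed in every library, at 37.5 to 10261 FPKM. Between the sites, 0 of them passed an adjusted p of 0.05 (limma, Benjamini-Hochberg adjusted p from 0.272 to 0.983, 0 at an unadjusted p under 0.05). Their log2 differences, Acerra minus Sarno, ran from -0.57 to 0.39, and 8 of the 11 were negative. The 8 marker genes of green tissue summed to between 22.2 and 39.7 FPKM in Acerra and between 126 and 303 FPKM in Sarno, with 1 gene making up most of the sum in every library.

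Over all tested loci, 1598 had a limma adjusted p under 0.05 and are referred to as called, 8.83% of those tested, with 1190 higher in Acerra (6.58%) and 408 higher in Sarno (2.26%). The median difference over all loci was 0.10 on the log2 scale, and rescaling each library by its median ratio brought it to 0.00 and the split to 649 and 449, so that the direction shares below are read against that shift. Among the called loci, 561 were at least 2 times higher in Acerra and 235 at least 2 times higher in Sarno on the scale of FPKM + 0.5. Leaving out a single Acerra library cut the calls to 82, 3 and 4 for replicates 1, 2 and 3, while 772 were left without Sarno replicate 1, 647 without Sarno replicate 2 and 1805 without Sarno replicate 3. The call was kept in all 6 of these fits by 3 loci and in none of them by 313. Those kept in all 6 include Solyc10g017970 and Solyc10g017980, listed at 0 in every Sarno library and described below. Every called locus was without overlap between the sites, so leaving out 1 library could not reverse its direction. Of the loci called higher in Acerra, 1183 of 1190 stayed above the FPKM minimum in all 6 fits. For those called higher in Sarno it was 400 of 408. In whole fruit, fewer cells of a type and less RNA per cell cannot be told apart.

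The genes were then read by pathway, in 15 lists built from the study's gene descriptions. Of 134 listed genes, 111 passed the minimum of 0.5 FPKM and 45 of these were called, 35 higher in Acerra and 10 higher in Sarno. The study chose most of these genes because they differed in these libraries or in those of SM and RSV, so their counts are not independent evidence of a direction. Their median difference was 1.23 on the log2 scale against 0.10 over all tested loci. The list counts that follow stand beside 6.58% of all tested loci called higher in Acerra and 2.26% called higher in Sarno. Every Acerra library was above every Sarno library in 24.5% of all tested loci, and the reverse held in 12.4%. Without Acerra replicate 2, 0 of the 111 passed, and without Acerra replicate 3 only the defensin Solyc07g007750 did, which holds for every list that follows and is not repeated. Without Acerra replicate 1, 7 passed, and without Sarno replicate 1 it was 34 higher in Acerra and 7 higher in Sarno.

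**Figure D1:**
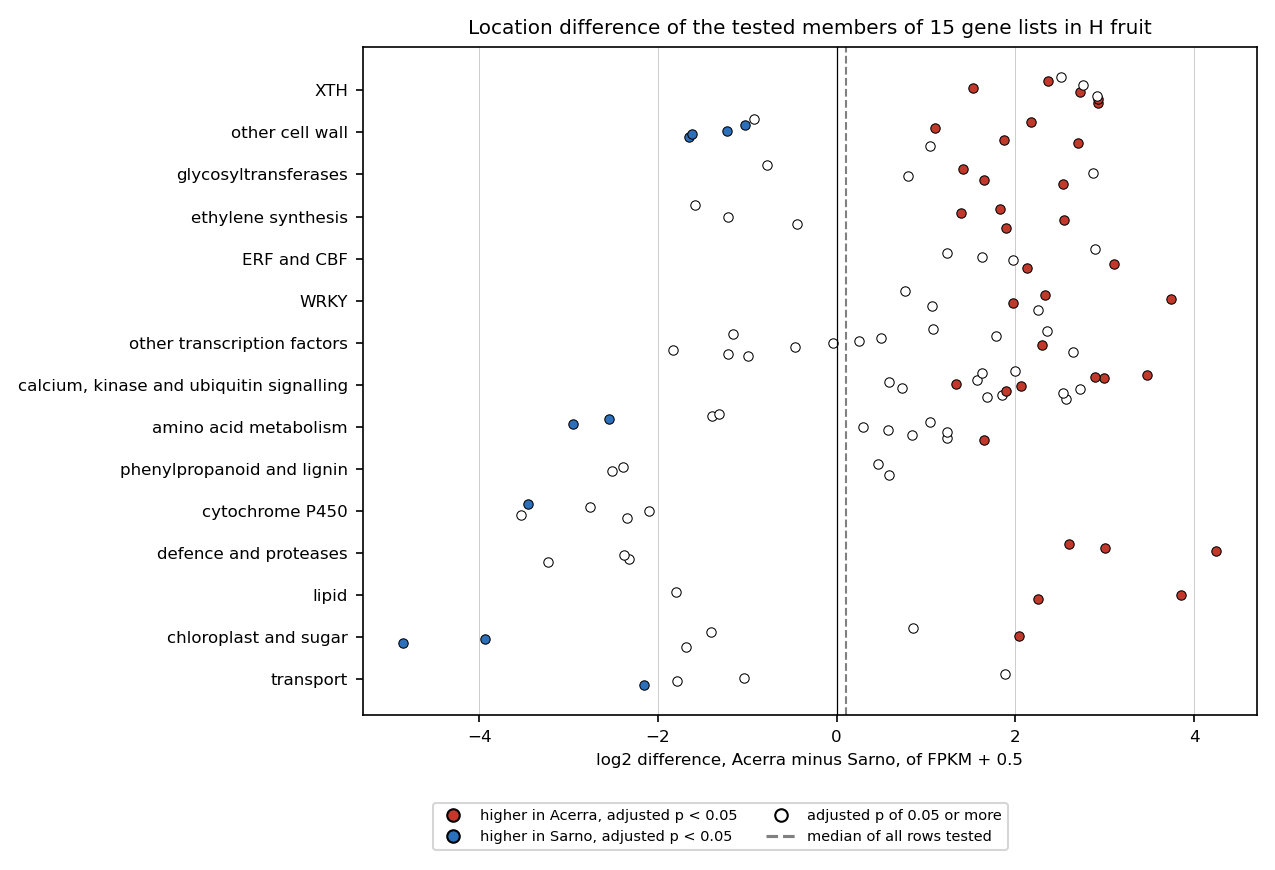
Log2 difference between Acerra and Sarno (x axis, on FPKM + 0.5, positive when higher in Acerra) for each tested member of the 15 gene lists in H fruit, with 1 point per gene, filled where the limma adjusted p is under 0.05. The points of the XTH, ERF and CBF, WRKY and signalling lists all lie to the right of 0, those of the cytochrome P450 list all lie to the left, and the dashed line marks the median of all tested loci at 0.10.

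ACC synthases commit the pathway to ethylene, and 4 of the 7 tested members of the list were called, all ACC synthases higher in Acerra. Solyc08g081550, 1 of the 2 genes that the study names ACS6, was at 44.4, 75.3 and 51.1 FPKM in Acerra replicates 1 to 3 and at 13.9, 20.1 and 12.7 FPKM in Sarno replicates 1 to 3. Its lowest Acerra value was thus above its highest Sarno value, with a log2 difference of 1.83, standard error 0.25, limma adjusted p = 0.0187. Its neighbour on chromosome 8, Solyc08g081540, also named ACS6, was far lower at 2.41, 4.09 and 3.49 FPKM in Acerra and 0.778, 1.11 and 0.936 FPKM in Sarno. Here too the sites did not overlap (log2 difference 1.39, standard error 0.23, limma adjusted p = 0.0245). Solyc00g095860, an ACC synthase on an unplaced sequence, gave 28.1, 42.0 and 27.7 FPKM in Acerra and 7.49, 10.2 and 7.20 FPKM in Sarno, again without overlap (log2 difference 1.90, standard error 0.21, limma adjusted p = 0.0174). Its locus spans only bases 15591227 to 15591898, and whether it shares reads with other ACC synthases was not tested. The fourth, Solyc08g008100, shares its locus value with Solyc08g008110, so it is uncertain which of them the difference belongs to (log2 difference 2.54, standard error 0.43, limma adjusted p = 0.0262). Without Sarno replicate 1 the list again had 4 calls.

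The ripening-related ACS2 gene, Solyc01g095080, was level in 5 of the 6 libraries, at 88.3, 83.1 and 76.9 FPKM in Acerra and at 246, 84.3 and 67.7 FPKM in Sarno replicates 1 to 3. Only Sarno replicate 1 was raised, and the gene did not pass (log2 difference -0.44, standard error 0.46, limma adjusted p = 0.56, and 0.13 without that library). Solyc12g005940, an ACC oxidase that the study calls ACO4, was at 12, 0.0397 and 0.3 FPKM in the Sarno libraries against at most 0.179 FPKM in Acerra. Sarno replicate 1 held 97.2% of its summed Sarno value, and the gene did not pass (log2 difference -1.59, standard error 1.13, limma adjusted p = 0.386). The remaining tested gene, Solyc08g079750, is described by the study both as an ACC synthase and as the probable aminotransferase ACS10. It was higher in all 3 Sarno libraries than in any Acerra library, without passing (log2 difference -1.21, standard error 0.30, limma adjusted p = 0.0574). The other 2 genes of the list were under the minimum. Solyc03g043890, an ACC synthase, was at 0.612, 0.432 and 1.33 FPKM in Acerra and 0.0271, 0.0598 and 0.0188 FPKM in Sarno, and Solyc02g071430, an ACC oxidase, reached 1.58 FPKM in Sarno replicate 1 and at most 0.116 elsewhere.

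In the list of ethylene response and cold response transcription factors, all 6 tested genes had every Acerra library above every Sarno library, a pattern shown by 24.5% of all tested loci, and 2 of them were called, both higher in Acerra. Solyc09g075420, ethylene responsive transcription factor 2b, was at 258, 346 and 513 FPKM in Acerra and 62.7, 116 and 74.0 FPKM in Sarno. The difference exceeded the spread within either site (log2 difference 2.13, standard error 0.32, limma adjusted p = 0.0208). Solyc11g012980, ethylene-responsive transcription factor 9, was at 75.9, 103 and 94.8 FPKM in Acerra against 3.02, 30.2 and 10.6 FPKM in Sarno (log2 difference 3.10, standard error 0.72, limma adjusted p = 0.0485). The Acerra values of this gene were close together and those of Sarno were spread widely, lowest in replicate 1. The call was lost after rescaling by median ratio (limma adjusted p = 0.0581).

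The 4 other members did not pass, although their sites did not overlap either. Solyc03g026280, described as CRT binding factor 2 and thus a factor of the cold response, had 151, 277 and 222 FPKM in Acerra and 6.74, 94.1 and 32.9 FPKM in Sarno (log2 difference 2.89, standard error 0.87, limma adjusted p = 0.0842). Its 3 Sarno libraries were spread widely, and replicate 1 was the lowest. Log2 differences of the ERF genes Solyc10g009110, Solyc10g006130 and Solyc03g093540 were 1.97, 1.63 and 1.23, with limma adjusted p of 0.0574, 0.0842 and 0.218. Solyc03g093540 shares its locus with 2 other gene IDs. Solyc10g006130 has 2 tested loci, and the second is not shown here. In all 6 genes Sarno replicate 1 was the lowest of the 6 libraries, which was so for 28.6% of all tested loci.

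WRKY factors, regulators of defence and senescence in plants, were represented by 6 genes, of which 3 were called, all higher in Acerra. Solyc08g008280 had the smallest adjusted p of any listed gene. It was at 51.2, 69.9 and 97.0 FPKM in Acerra and at 3.82, 6.06 and 4.78 FPKM in Sarno, so that both sites were tight and far apart (log2 difference 3.74, standard error 0.26, limma adjusted p = 0.00945). Solyc03g116890 gave 83.2, 133 and 113 FPKM in Acerra against 20.7, 23.5 and 40.6 FPKM in Sarno, without overlap (log2 difference 1.97, standard error 0.29, limma adjusted p = 0.0202). The weakly expressed Solyc08g082110 was at 4.75, 13.1 and 8.05 FPKM in Acerra and 2.55, 0.625 and 0.9 FPKM in Sarno, and here Sarno replicate 1 was the highest of its site (log2 difference 2.33, standard error 0.48, limma adjusted p = 0.0388). The call of Solyc08g082110 was lost after rescaling by median ratio and with a replicate block (limma adjusted p = 0.0504 and 0.085). Without Sarno replicate 1 the list had 4 calls.

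Of the others, Solyc01g095630 was at 87.3, 123 and 143 FPKM in Acerra and 6.33, 60.7 and 33.8 FPKM in Sarno, a difference of 2.25 that did not pass (limma adjusted p = 0.11), with Sarno replicate 1 lowest. Solyc09g014990 showed the reverse arrangement, 3.91, 6.29 and 6.27 FPKM in Acerra and 10.4, 1.33 and 1.62 FPKM in Sarno. Sarno replicate 1 lay above all Acerra libraries while the other Sarno libraries lay below them (log2 difference 0.76, standard error 0.67, limma adjusted p = 0.488), and without that library the difference was 1.58 with a limma adjusted p of 0.0376. Solyc03g007380 stayed under 2 FPKM throughout and did not pass (limma adjusted p = 0.174).

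**Figure D2:**
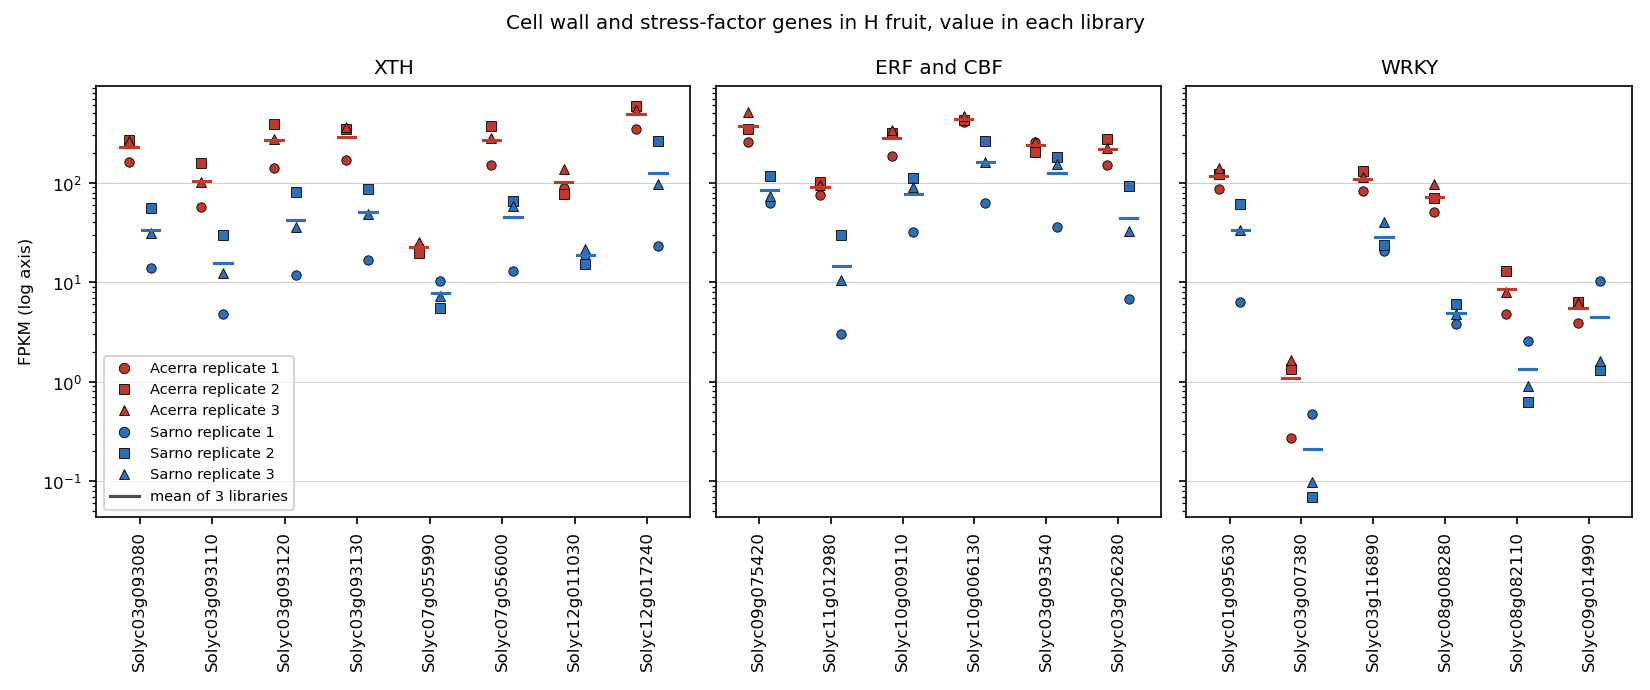
FPKM (log axis) of the tested XTH, ERF and CBF, and WRKY genes in each of the 6 H libraries, with a symbol for each replicate and a bar for the mean of the 3 libraries of a site. Acerra values lie above Sarno values in most genes, and Sarno replicate 1 (circle) is the lowest library for all 6 ERF and CBF genes.

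For signalling, all 16 tested members of the list of calmodulin-related proteins, kinases, a phosphatase and ubiquitin ligases had a positive difference, with a median of 1.95 on the log2 scale. Of these, 6 were called, all higher in Acerra, and 13 had every Acerra library above every Sarno library, as 24.5% of all tested loci had. The largest difference was that of Solyc01g005160, listed by the study both as a U-box protein and as an amidotransferase subunit. It was at 24.3, 43.1 and 74.1 FPKM in Acerra and 2.20, 3.06 and 5.61 FPKM in Sarno, with no overlap between the sites (log2 difference 3.47, standard error 0.46, limma adjusted p = 0.0185). The serine/threonine kinase Solyc07g064820 was at 5.42, 11.4 and 8.67 FPKM in Acerra and 0.158, 0.676 and 1.17 FPKM in Sarno (log2 difference 2.99, standard error 0.41, limma adjusted p = 0.0186). For Solyc11g020230, a kinase like Pto, the tomato resistance protein that recognises bacterial speck, Acerra libraries held 14.3, 25.7 and 16.7 FPKM and Sarno libraries 0.704, 3.15 and 3.21 FPKM (log2 difference 2.89, standard error 0.47, limma adjusted p = 0.0245). In both kinases Sarno replicate 1 was the lowest library.

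The other 3 called genes of this list were kinases. The receptor-like kinase Solyc08g066320 differed by 2.06 on the log2 scale, the MAP kinase Solyc06g005170, part of the phosphorylation cascades that relay stress signals, by 1.90 and the receptor-like kinase Solyc06g008300 by 1.34, with limma adjusted p of 0.0186, 0.0304 and 0.0434. Solyc06g008300 passed in 0 of the 6 fits with 1 library left out, and neither without Sarno replicate 1 nor after rescaling by median ratio (limma adjusted p = 0.0664 and 0.0653). The most abundant member, the calmodulin-like protein Solyc02g094000, was at 437, 685 and 539 FPKM in Acerra and 15.3, 199 and 242 FPKM in Sarno. Its sites did not overlap, yet the spread in Sarno was wide and the gene did not pass (log2 difference 2.57, standard error 1.01, limma adjusted p = 0.147). Sarno replicate 1 was the lowest library for 13 of the 16 genes, and without it 10 of the 16 passed, the calmodulin-like gene among them at 1.31 (limma adjusted p = 0.045).

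Among 13 other tested transcription factors the direction was mixed, with 7 higher and 6 lower in Acerra, and 1 was called. This was the Dof zinc finger factor Solyc02g090310, at 64.6, 72.4 and 121 FPKM in Acerra and 20.2, 12.9 and 16.7 FPKM in Sarno. The sites did not overlap (log2 difference 2.30, standard error 0.27, limma adjusted p = 0.0174). Sarno replicate 1 was the highest of the 6 libraries for 6 of these factors and the lowest for 6 others. The Myb-related factor Solyc09g090130 was at 0.178, 0.0837 and 0.167 FPKM in Acerra and 16.1, 0.546 and 0.183 FPKM in Sarno, with 95.7% of the Sarno sum in replicate 1 (log2 difference -1.83, standard error 1.14, limma adjusted p = 0.327). Another Myb-related factor, Solyc07g053230, showed the opposite, 11.5, 28.8 and 17.1 FPKM in Acerra and 0.172, 3.72 and 8.32 FPKM in Sarno, and replicate 1 was its lowest library (log2 difference 2.65, standard error 0.92, limma adjusted p = 0.115).

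XTHs cut and rejoin xyloglucan, the polymer that ties cellulose fibres together. All 8 tested XTH genes were higher in every Acerra library than in any Sarno library, as 24.5% of all tested loci were. Of the 8 genes, 5 were called, where 6.58% of all tested loci were called higher in Acerra. The differences of the 8 genes ran from 1.53 to 2.93 on the log2 scale. Their median was 2.74 (2.63 after rescaling by median ratio, when 3 were called). Of these genes, 4 lie in 1 stretch of chromosome 3 of the reference build SL2.40, from the start of Solyc03g093080 at 47714082 to the end of Solyc03g093130 at 47753434. Because the authors' correction for reads with several matches divides such reads between similar copies, values of single copies in this cluster are uncertain.

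In the cluster, Solyc03g093080 was at 162, 268 and 263 FPKM in Acerra and 13.8, 55.3 and 31.6 FPKM in Sarno (log2 difference 2.93, standard error 0.49, limma adjusted p = 0.0259). Solyc03g093130 was at 169, 347 and 361 FPKM in Acerra and 16.9, 86.8 and 48.9 FPKM in Sarno (log2 difference 2.72, standard error 0.61, limma adjusted p = 0.0451). Both were lowest in Sarno replicate 1 and highest within Sarno in replicate 2. The other copies, Solyc03g093110 and Solyc03g093120, had the same order of Sarno libraries and differences of 2.93 and 2.91, with limma adjusted p of 0.0463 and 0.0533. Both called copies other than Solyc03g093080, which are Solyc03g093110 and Solyc03g093130, lost their calls after rescaling by median ratio (limma adjusted p = 0.0558 and 0.0546) and without Sarno replicate 1 (limma adjusted p = 0.0685 and 0.0535).

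Outside the cluster, Solyc12g011030 on chromosome 12 was at 88.1, 76.7 and 138 FPKM in Acerra and 18.8, 15.5 and 21.8 FPKM in Sarno. The 3 Sarno values lay close together (log2 difference 2.37, standard error 0.25, limma adjusted p = 0.0174). Solyc07g055990 was lower, at 22.6, 19.8 and 25.7 FPKM in Acerra and 10.3, 5.56 and 7.36 FPKM in Sarno (log2 difference 1.53, standard error 0.23, limma adjusted p = 0.0207), and in this XTH Sarno replicate 1 was the highest of its site. The most abundant XTH, Solyc12g017240, was at 344, 599 and 540.3 FPKM in Acerra and 23.3, 261 and 97.1 FPKM in Sarno. Its Sarno values were spread widely and it did not pass (log2 difference 2.51, standard error 0.81, limma adjusted p = 0.1), nor did Solyc07g056000 (2.76, limma adjusted p = 0.0516). Without Sarno replicate 1, 4 XTH genes passed, Solyc07g056000 among them (2.02, limma adjusted p = 0.0479). Solyc07g052980 was under the minimum, at or below 0.437 FPKM in every library.

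The other cell wall enzymes divided, with 4 called higher in Acerra and 4 called higher in Sarno of 10 tested. Toward Acerra were genes that modify pectin, loosen the wall or build it. The pectinesterase Solyc03g123620, an enzyme that removes methyl groups from pectin, was at 19.2, 55.7 and 40.3 FPKM in Acerra and 2.05, 8.36 and 6.75 FPKM in Sarno (log2 difference 2.70, standard error 0.57, limma adjusted p = 0.0405). The arabinogalactan gene Solyc02g092790, a wall glycoprotein, was at 311, 407 and 411 FPKM in Acerra and 59.8, 58.5 and 156 FPKM in Sarno (log2 difference 2.18, standard error 0.39, limma adjusted p = 0.0288). Neither gene overlapped between the sites. The call of Solyc03g123620 was kept in 0 of the 6 fits with 1 library left out. Another pectinesterase, Solyc03g083730, overlapped between the sites and did not pass (log2 difference 1.04, limma adjusted p = 0.293). The expansin-like gene Solyc01g112000 differed by 1.87 and the cellulose synthase Solyc12g056580 by 1.10 (limma adjusted p = 0.0284 and 0.0443), and the call of Solyc12g056580 was lost after rescaling by median ratio (limma adjusted p = 0.061).

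Toward Sarno were glycosidases and a callose-type synthase. Endoglucanase 1, Solyc09g010210, which cuts glucan chains, was at 71.2, 92.8 and 48.6 FPKM in Acerra and 214, 260.1 and 183 FPKM in Sarno (log2 difference -1.65, standard error 0.26, limma adjusted p = 0.022). The beta-galactosidase Solyc12g008840, which strips galactose from wall polymers, was at 17.7, 16.2 and 20.2 FPKM in Acerra and 63.2, 62.3 and 45.1 FPKM in Sarno (log2 difference -1.62, standard error 0.17, limma adjusted p = 0.0174). In both genes all 3 Sarno libraries were above every Acerra library. Beta-xylosidase 1, Solyc11g044910, differed by -1.23 and glucan synthase like 3, Solyc01g006370, by -1.02 (limma adjusted p = 0.0363 and 0.0174). In these 4 genes the share of replicate 1 in the Sarno sum was between 32.2% and 44.0%. Without Sarno replicate 1, 3 of the 4 Sarno genes passed and 0 of the 4 Acerra genes did.

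Glycosyltransferases, which attach sugars to walls and metabolites, had 3 of 6 tested members called, all higher in Acerra. Solyc02g089440 was at 37.5, 43.6 and 51.3 FPKM in Acerra and 14, 11.8 and 15.3 FPKM in Sarno, with little spread at either site (log2 difference 1.65, standard error 0.16, limma adjusted p = 0.0166). Solyc02g087350 differed by 2.53 and Solyc06g083310 by 1.41 (limma adjusted p = 0.0482 and 0.0316). The call of Solyc02g087350 was lost after rescaling by median ratio (limma adjusted p = 0.0574) and that of Solyc06g083310 without Sarno replicate 1 (limma adjusted p = 0.0611). Solyc07g055930 went the other way, with every Sarno library above every Acerra library, but did not pass (-0.78, limma adjusted p = 0.108).

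The list of defence proteins and proteases had 3 of 6 tested members called, all higher in Acerra. The defensin Solyc07g007750, a small antimicrobial peptide, was at 14, 16.1 and 52.2 FPKM in Acerra and under 1 FPKM in Sarno, at 0.996, 0.628 and 0.594. This was the largest called difference toward Acerra in the lists (log2 difference 4.25, standard error 0.49, limma adjusted p = 0.0174), and it passed in 5 of the 6 fits with 1 library left out. The aspartic proteinase Solyc05g051240, of the nepenthesin type, was at 141, 274 and 244 FPKM in Acerra and 9.42, 55.1 and 32.8 FPKM in Sarno (log2 difference 3.00, standard error 0.63, limma adjusted p = 0.0401). The matrix metalloproteinase Solyc04g005040 differed by 2.60 (limma adjusted p = 0.0451), a call lost without Sarno replicate 1 and after rescaling by median ratio (limma adjusted p = 0.0933 and 0.0551). The 3 chitinases, which degrade the chitin of fungal walls, had negative differences and did not pass. Solyc07g009530 was at 2707, 115 and 166 FPKM in Sarno and 90.8, 39.3 and 16.8 FPKM in Acerra, 90.6% of the Sarno sum being in replicate 1 (log2 difference -3.23, standard error 1.25, limma adjusted p = 0.143). Its locus spans only bases 4681799 to 4681990 of chromosome 7. For Solyc08g013670 the difference was -2.32 (limma adjusted p = 0.0516, and 0.0436 without Sarno replicate 1) and for Solyc09g011520 it was -2.38 (limma adjusted p = 0.201).

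Lipid enzymes included 3 tested genes. The GDSL esterase/lipase Solyc07g064720 was at 21.4, 28.9 and 70.4 FPKM in Acerra and 2.57, 0.878 and 3.08 FPKM in Sarno (log2 difference 3.85, standard error 0.53, limma adjusted p = 0.0186). The lipase Solyc08g078090 was at 20.9, 35.7 and 26.6 FPKM in Acerra and 2.62, 5.85 and 9.39 FPKM in Sarno (log2 difference 2.25, standard error 0.43, limma adjusted p = 0.0329). Neither lipase overlapped between the sites. The third, the cortical cell-delineating protein gene Solyc12g014630, was at 12.4, 0.213 and 0.0671 FPKM in Sarno, almost all of it in replicate 1, and every Acerra library listed it at 0 (limma adjusted p = 0.34).

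Amino acid metabolism had 3 of 11 tested genes called. Proline dehydrogenase, Solyc02g089630, the first enzyme of proline breakdown, was at 18.6, 22.7 and 8.80 FPKM in Acerra and 231, 149 and 54.9 FPKM in Sarno. Every Sarno library was above every Acerra library (log2 difference -2.95, standard error 0.58, limma adjusted p = 0.0349), although the call was lost without replicate 1 (-2.51, limma adjusted p = 0.0617). The N-acetyltransferase Solyc08g006730 was at 0, 0.253 and 0.480 FPKM in Acerra and 6.74, 4.81 and 1.42 FPKM in Sarno (log2 difference -2.55, standard error 0.53, limma adjusted p = 0.0401), a call also lost without replicate 1 (limma adjusted p = 0.0729). Toward Acerra, the decarboxylase family gene Solyc08g068600 was at 31.0, 42.5 and 50.8 FPKM against 12.7, 19.2 and 8.16 FPKM in Sarno (log2 difference 1.65, standard error 0.33, limma adjusted p = 0.0358). This call was lost after rescaling by median ratio and without Sarno replicate 1 (limma adjusted p = 0.0504 and 0.0712). The glutamate decarboxylase Solyc04g025530, which makes the amino acid GABA, was at 0.490, 4.49 and 3.12 FPKM in Acerra and 13.1, 0.298 and 0.406 FPKM in Sarno. Sarno replicate 1 was above and the other Sarno libraries were below every Acerra library (log2 difference 0.29, standard error 1.19, limma adjusted p = 0.894). The leucyl aminopeptidase Solyc00g187050 reached 6.54 FPKM in Sarno replicate 1 and at most 0.117 FPKM elsewhere.

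Of the 6 tested genes of the chloroplast and of sugar metabolism, 2 were called higher in Sarno and 1 higher in Acerra, and the 2 Sarno genes had the largest differences toward Sarno in the lists. The photosystem II-associated protein Solyc06g060340 was at 0.374, 2.22 and 1.98 FPKM in Acerra and 85.3, 21.7 and 74.3 FPKM in Sarno. The fructose-bisphosphate aldolase Solyc02g062340, an enzyme of the Calvin cycle and of glycolysis, was at 0.376, 0.466 and 0.746 FPKM in Acerra and 14.4, 6.35 and 36.2 FPKM in Sarno. Both were raised in all 3 Sarno libraries, with differences of -4.85, standard error 0.64, limma adjusted p = 0.0185 and -3.93, standard error 0.57, limma adjusted p = 0.0198. They passed without Sarno replicate 1 as well, at -4.49 and -3.96 (limma adjusted p = 0.0356 and 0.0413).

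The green tissue markers summed to a higher level in every Sarno library than in any Acerra library, as given above. Of the 8 markers 5 were tested, 2 were called higher in Sarno and 0 were called higher in Acerra. Their part in the result was not tested. The most abundant marker was at 21.2, 23.7 and 38.8 FPKM in Acerra and at 252, 123 and 295 FPKM in Sarno, and the other 7 stayed under 4 FPKM in every library. Of the chlorophyll a-b binding proteins, which are also in the marker list, Solyc03g115900 was at 0.0333, 0.116 and 0 FPKM in Acerra and 3.91, 0.270 and 1.13 FPKM in Sarno (log2 difference -1.69, standard error 0.61, limma adjusted p = 0.125). The other, Solyc05g056050, was under the minimum. Toward Acerra, the phosphoglycerate mutase family gene Solyc01g098590 was at 238, 224 and 359 FPKM against 56.3, 37.6 and 127 FPKM in Sarno (log2 difference 2.04, standard error 0.44, limma adjusted p = 0.0428). It passed neither without Sarno replicate 1 nor after rescaling by median ratio (limma adjusted p = 0.0887 and 0.0536). Beta-carotene hydroxylase 2, Solyc03g007960, which converts beta-carotene to xanthophylls, did not pass (0.86, limma adjusted p = 0.143).

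Of 4 tested transport genes 1 was called. The aquaporin Solyc06g075650, a water channel, was at 0.0909, 0.106 and 0.0602 FPKM in Acerra and 3.59, 0.686 and 3.21 FPKM in Sarno (log2 difference -2.16, standard error 0.49, limma adjusted p = 0.0456). The call was lost with a pseudocount of 1, after rescaling by median ratio and without Sarno replicate 1 (limma adjusted p = 0.0575, 0.0515 and 0.0882). The mitochondrial 2-oxoglutarate/malate carrier Solyc05g051400 was at 78.9, 117 and 65.1 FPKM in Acerra and 6.46, 47.4 and 36.2 FPKM in Sarno, without overlap and without passing (log2 difference 1.88, standard error 0.71, limma adjusted p = 0.138).

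Cytochromes P450, oxidases of secondary metabolism, were all higher in Sarno replicate 1 than in any other library, in 5 of 5 tested genes, where 14.9% of all tested loci had their highest value in that library. Only Solyc10g080840 was called. It was at 5.93, 10.4 and 8.80 FPKM in Acerra and 158, 119 and 43.9 FPKM in Sarno, so all 3 Sarno libraries contributed (log2 difference -3.45, standard error 0.48, limma adjusted p = 0.019, and -3.07 with a limma adjusted p of 0.0339 without replicate 1). Solyc01g109140 had a log2 difference of similar size but another make-up, with 0.305, 0.330 and 0.115 FPKM in Acerra and 74.3, 5.01 and 1.03 FPKM in Sarno. Replicate 1 held 92.5% of the Sarno sum (log2 difference -3.53, standard error 1.30, limma adjusted p = 0.132). For Solyc00g247300, Solyc02g090350 and Solyc06g066230 that share was 90.8%, 93.9% and 89.6%, with limma adjusted p of 0.236, 0.277 and 0.151.

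Phenylpropanoid and lignin genes gave 0 calls among 4 tested, and 1 had an unadjusted p under 0.05. The laccase Solyc04g072280, which oxidises lignin precursors, was at 0.0349, 0.0735 and 0.0139 FPKM in Acerra and 33.2, 0.911 and 0.109 FPKM in Sarno. The peroxidase Solyc01g006300 was at 0, 0.0367 and 0.125 FPKM in Acerra and 54.1, 0.341 and 0.0269 FPKM in Sarno. In both genes a single library carried the mean, with 97.0% and 99.3% of the Sarno sum in replicate 1 (limma adjusted p = 0.277 and 0.378). The 4-coumarate CoA ligase-like gene Solyc06g035960, with the lowest unadjusted p, had a difference of 0.59 (limma adjusted p = 0.134).

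The study gives short lists of fruit quality genes for H at each site, chosen on these libraries for their high ratio between the sites. Of the 12 genes for Acerra, 10 were tested and all 10 were called higher in Acerra, with every Acerra library above every Sarno library and a median difference of 2.97 on the log2 scale. They include the WRKY gene Solyc08g008280, the defensin and the XTHs Solyc03g093080 and Solyc12g011030 described above. Of the 14 genes for Sarno, all were tested and 2 were called, the photosystem II-associated protein and the aldolase, against a median difference of -2.37. In 12 of the 14 Sarno replicate 1 was the highest of the 6 libraries. Besides those already given, Solyc07g064600, an endoribonuclease of the L-PSP family, was at 16.0, 0 and 0.140 FPKM in Sarno and at most 0.0776 FPKM in Acerra, with 99.1% of the Sarno sum in replicate 1. Solyc09g083190, which the study leaves without a function, was at 0, 0 and 0.0997 FPKM in Acerra and 1.60, 0.457 and 3.56 FPKM in Sarno, highest in replicate 3 (log2 difference -1.92, standard error 0.52, limma adjusted p = 0.0665).

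**Figure D3:**
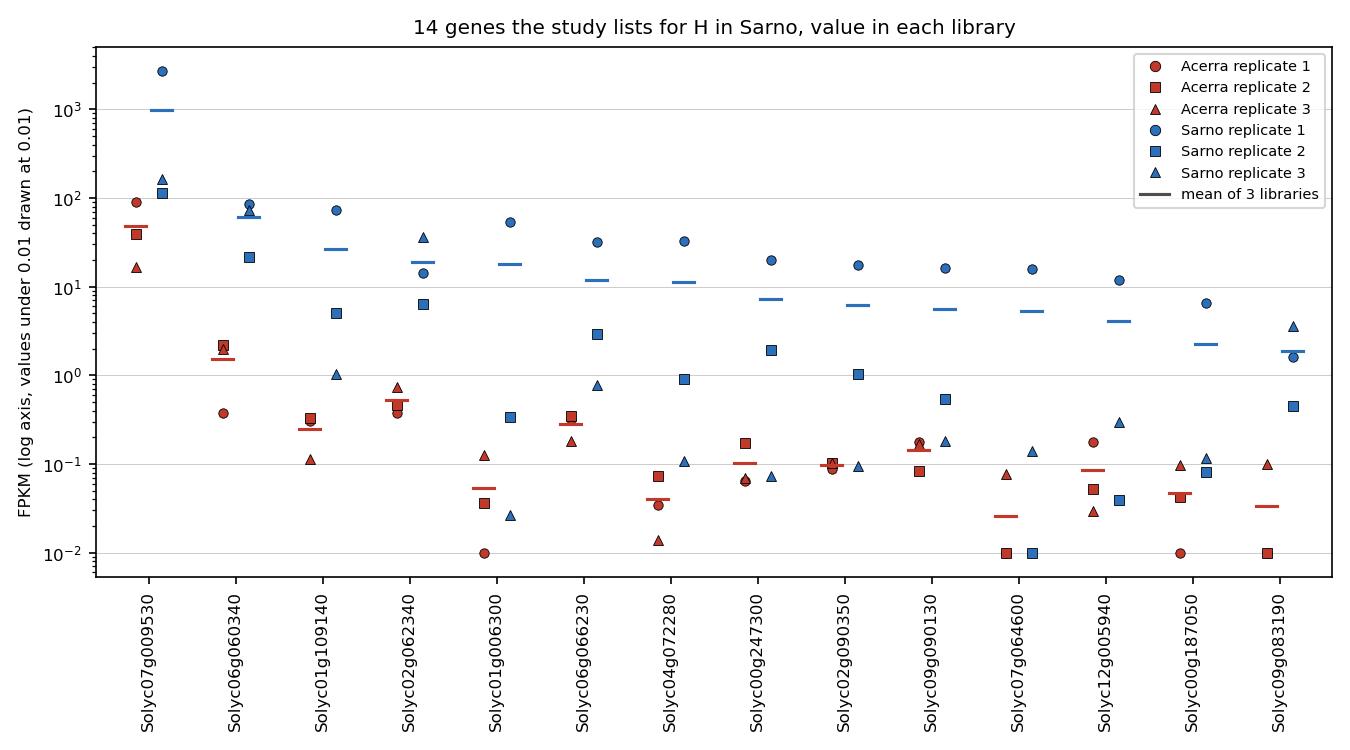
FPKM (log axis, values under 0.01 drawn at 0.01) of the 14 genes that the study lists for H in Sarno, in each of the 6 libraries, with a bar for the mean of the 3 libraries of a site. In 12 genes the circle of Sarno replicate 1 is the highest point, and only in a few do the other Sarno libraries also lie well above Acerra.

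How far the Sarno side rests on replicate 1 was counted over all loci. The Sarno mean was at least 2 times the Acerra mean (FPKM + 0.5) for 914 tested loci, 5.05% of all. Of these, 157 (17.2%, and 0.868% of all tested) had the mean of the other Sarno libraries at or below the highest Acerra library, so that they rested on replicate 1 alone. The same count gave 5 loci for Sarno replicate 2, 36 for Sarno replicate 3 and 9, 35 and 23 of 1119 for the Acerra replicates 1, 2 and 3. In the 157 loci the median was 11.4 FPKM in Sarno replicate 1, 0.690 FPKM for the mean of the other Sarno libraries and 0.880 FPKM for the Acerra mean, and 86 of them reached at least 10 FPKM in replicate 1. Loci that meet this definition overlap between the sites, and none was called for any of the 6 libraries.

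The laccase and the peroxidase do not meet this definition, since the mean of their other Sarno libraries was above the highest Acerra library. Under a broader one, chosen after the values were seen, in which the Sarno excess drops below 2 times once replicate 1 is removed, 437 of the 914 loci (47.8%, and 2.42% of all tested) rested on replicate 1, against 32 and 103 for Sarno replicates 2 and 3 and 56 to 192 for the Acerra libraries. Of these 437, 26 were called, where 239 of all 914 were. Among the 559 called of the 1119 loci at least 2 times higher in Acerra, 8, 28 and 68 rested in this way on Acerra replicates 1, 2 and 3. In the pathway lists 3 genes met the strict definition, the ACC oxidase Solyc12g005940, the trehalose-phosphate synthase Solyc09g097960 and the XPR1-type receptor Solyc01g090890, and 13 met the broader one. Solyc09g097960 was at 36.2, 2.23 and 7.68 FPKM in Sarno and 8.92, 2.88 and 0.884 FPKM in Acerra, and Solyc01g090890 at 4.33, 0.806 and 0.139 FPKM and 0.493, 0.0478 and 0.354 FPKM. In the study's Sarno list it was 2 by the strict and 7 of 14 by the broader definition.

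Of the 408 loci called higher in Sarno, 405 could be tested again without replicate 1, and 160 passed. Every call in either direction came from a locus without overlap between the sites, which for Sarno above Acerra was 12.4% of the tested loci. The sign of these loci could therefore not change without replicate 1. All 405 had an unadjusted limma p under 0.05 in that fit. They had been selected with the same libraries, so this is no independent check. Replicate 1 was the highest library in 201 of the 408. Replicate 1 also bore on the Acerra side, where it was the lowest of the 6 libraries for 28.6% of all tested loci and for 44 of the 111 tested list members (39.6%). Of the 1190 loci called higher in Acerra, 478 passed without it.

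**Figure D4:**
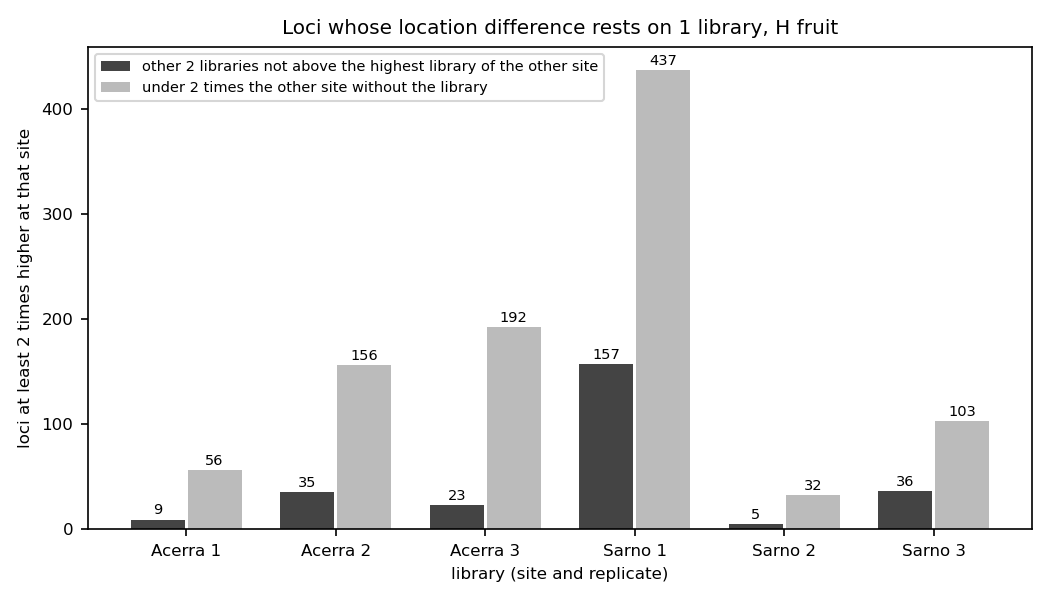
Number of loci (y axis) at least 2 times higher at a site whose difference rests on the single library named on the x axis, by the strict definition (dark bars) and the broader definition (light bars). Sarno replicate 1 has the tallest bars under both, at 157 and 437 of 914 loci.

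The same sites were compared in SM and RSV, whose libraries share no sample with H. Of the loci tested in SM, 6.07% were called higher in Acerra and 2.14% higher in Sarno, and in RSV it was 6.11% and 5.72%. Of 1006 loci called higher in Acerra in H and tested in both H and SM, 278 were called the same way in SM, which is 27.6% of the H calls and 30.8% of the SM calls, where 6.17% of all matched loci were called so in SM. For RSV it was 307 of 1002 (30.6% of the H calls and 33.7% of the RSV calls). On the Sarno side 63 of 344 H calls were called in SM (18.3% of the H calls and 19.3% of the SM calls) and 126 of 327 in RSV (38.5% and 14.8%). Opposite calls were few, 2 in SM and 4 in RSV. The difference in location response itself, tested as an interaction, passed for 13 of 15347 loci against SM (0.0847%) and for 16 of 15400 against RSV (0.104%), while 1751 and 2548 had an unadjusted p under 0.05.

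Among the pathway genes tested in H, 0 of 102 passed the interaction with SM and 0 of 104 that with RSV, although 20 and 22 had an unadjusted p under 0.05. The smallest adjusted p was 0.0516 for the Dof factor Solyc02g090310 against SM, where its own difference was 0.29 (limma adjusted p = 0.141) beside 2.30 in H. Against RSV it was 0.104 for the XTH Solyc07g055990, with 0.05 in RSV (limma adjusted p = 0.895) beside 1.53 in H. The photosystem II-associated gene Solyc06g060340 differed by -4.85 in H, -0.97 in SM and -1.64 in RSV, and the defensin Solyc07g007750 by 4.25, 0.88 and 1.20. Neither passed in SM or RSV, and neither interaction passed (adjusted p between 0.104 and 0.255). Other listed genes were called higher in Acerra in H, SM and RSV alike. Solyc08g081550 differed by 1.83 in H, 2.01 in SM and 2.26 in RSV (limma adjusted p = 0.0187, 0.00132 and 0.00266). For Solyc11g012980 it was 3.10, 3.92 and 3.29 (limma adjusted p = 0.0485, 0.00938 and 0.000676). The XTH Solyc12g017240, not called in H, was called higher in Acerra in SM and RSV (3.49 and 2.91, limma adjusted p = 0.00288 and 0.000206).

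Outside the lists, loci are known here by their gene IDs only. The largest called differences toward Sarno among loci with a gene ID averaging at least 1 FPKM were Solyc01g007400, at 1.25, 0 and 0.497 FPKM in Acerra and 18.7, 54.8 and 77.9 FPKM in Sarno (log2 difference -5.51, standard error 0.64, limma adjusted p = 0.0174), and Solyc03g044850, at 0, 0 and 0.208 FPKM in Acerra and 61.5, 2.16 and 11.2 FPKM in Sarno (log2 difference -4.47, standard error 1.04, limma adjusted p = 0.0489). The first was high in all 3 Sarno libraries and the second mainly in replicate 1, and they passed in 4 and 2 of the 6 fits with 1 library left out. The locus of Solyc03g044850 spans only bases 14628987 to 14629187 of chromosome 3. Its call was lost after rescaling by median ratio, with a replicate block and with a pseudocount of 1 (limma adjusted p = 0.0572, 0.0636 and 0.0681). Toward Acerra the largest called differences were those of Solyc10g017970 and Solyc10g017980, which the files place on the same span of chromosome 10, from 6148651 to 6174464. Acerra libraries held 3291, 1294 and 731 FPKM of the first and 1114, 460.3 and 268 FPKM of the second, and all 3 Sarno libraries listed both at 0. No fold change is given for them, because an exact 0 opposite such levels can mean that the software gave no estimate, and they were the only loci listed at 0 at one site with at least 100 FPKM in every library of the other. Solyc10g017980 has 2 tested loci, of which 1 is shown here. Solyc10g017970 was not called in SM or RSV (limma adjusted p = 0.712 and 0.368).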

How the data were processed

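RNA was taken from red ripe H fruit, and TruSeq libraries were sequenced as paired ends. Per the study's methods and the submitters' processing notes, the authors used CASAVA 1.8.2 and aligned reads with TopHat2 2.0.6, for H to the SL2.40 genome, and computed FPKM with Cufflinks 2.1.1, with reference-guided assembly and correction for reads with several matches. That correction divides reads between similar gene copies, and assembly can join neighbouring genes to 1 locus. The deposited values are FPKM written with decimal commas, which were read as decimal points. They are not counts, so no count model was used.

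Libraries were grouped by the deposited labels, 3 for each site. Loci averaging 0.5 FPKM or more were compared on log2(FPKM + 0.5) with limma 3.58.1 in R 4.3.3 (lmFit and eBayes with a trend) over the 6 H libraries, with Benjamini-Hochberg adjustment over all loci tested and a threshold of 0.05. Fold changes on this scale understate the change of low genes. An exact permutation test of 3 against 3 libraries cannot go below p = 0.1, so none was used. The location response of H was set against that of SM and of RSV by an interaction term, over gene IDs listed for both varieties. Tables and figures were made with Python 3.11.15, pandas 2.3.3, numpy 2.4.6 and matplotlib 3.10.9, and the fit was tested on simulated data.

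Members and gene lists were chosen with earlier results of these data known. The genes named in the text are members of those lists, with at most 2 loci outside them in each direction, those with a gene ID and the largest called difference. Alternatives were other pseudocounts, filters, scalings and variance models, a replicate block, 1 fit over all 18 libraries and each library left out.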

Additional observations from a re-analysis of the deposited data

Results flagged for a closer look

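The location response differed between H and SM for 13 of 15347 loci and between H and RSV for 16 of 15400 (interaction term in limma, adjusted p under 0.05). Against SM, 4 of the 13 responded more toward Acerra in H and 9 less, and against RSV it was 5 and 11. In 6 of the 13 and 5 of the 16, the other variety was listed at 0 in all libraries of a site and at 100 FPKM or more in all libraries of the other, so no fold is given for them. In 3 of the 13 and 6 of the 16 the sites did not overlap in either variety and the directions were opposite, and Solyc03g083910, listed at 0 in all Sarno libraries of SM and of RSV, is in both counts. H was below 0.5 FPKM in all libraries for 1 of the 13 and 5 of the 16.

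Among the listed genes, the matrix metalloproteinase Solyc05g006360 differed in its location response between H and RSV by -1.67 on the log2 scale (limma adjusted p = 0.0292). In H it was at 0.114, 0.133 and 0.0756 FPKM in Acerra and at 0.0373, 0.0274 and 0 FPKM in Sarno, under the minimum of 0.5 FPKM. In RSV it was at 2.45, 2.97 and 3.07 FPKM in Acerra and at 0.415, 0.326 and 0.449 FPKM in Sarno.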

How the results depend on the processing

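Of the 1598 calls over all loci, 1190 higher in Acerra and 408 higher in Sarno, 1 fit over all 18 libraries gave 3531 (2563 and 968), quantile normalization 831 (424 higher in Acerra), and a required log2 difference of at least 1 gave 796 (561 and 235). Calls higher in Acerra were 649 after rescaling by median ratio and 788 with no filter on low values. With 1 library left out the total ranged from 3 to 1805, calls higher in Acerra from 3 to 1394 and calls higher in Sarno from 0 to 411. The 45 calls in the pathway lists became 26 with no filter (20 and 6) and 29 with quantile normalization (21 higher in Acerra). The fit over all 18 libraries gave 17 higher in Sarno. With 1 library left out the lists held 0 to 41 calls, 0 to 34 higher in Acerra and 0 to 9 higher in Sarno. Why these counts changed was not tested. The fit over all 18 libraries estimates the spread from more samples and also covers another set of loci. That set holds gene IDs listed once in each variety, with the FPKM minimum applied to the mean over all 18 libraries. Loci resting on Sarno replicate 1 numbered 41 when Sarno had to be at least 4 times Acerra and 437 by the broader definition. Without Sarno replicate 1 the location response of H differed from that of SM for 25 loci and from that of RSV for 73.

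Same-numbered libraries of the sites deviated together from their site means with r of 0.115, 0.053 and 0.018. For libraries of different number r ran from -0.119 to 0.067. With 3 libraries per site these values cannot decide whether the replicate numbers pair the libraries. A replicate block gave 1113 calls in H, 50 of them in the pathway lists, and 9 loci in the comparison with RSV.

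Of the genes named, ACS2 (Solyc01g095080) reversed to 0.13 without Sarno replicate 1, and with 1 library left out it ranged from -0.80 to that value. Glutamate decarboxylase (Solyc04g025530) reversed to -0.18 without Acerra replicate 2, to -0.42 without Sarno replicate 2 and to -0.33 without Sarno replicate 3, its highest such value being 1.62 without Sarno replicate 1, and neither gene was called in any of these fits. FPKM values were not turned back into fragments, so no limit of detection is given for values at or near 0.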
